A study of Homo sapiens with 12 samples.

Results

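HepG2 cells, a line established from a human liver tumour, were compared after growth in high-glucose and in low-glucose DMEM. The comparison takes the 3 libraries labelled HGDMEM and the 3 labelled LGDMEM, 6 of the 12 libraries of the study, over all 10945 rows of the count table that carry a gene symbol. The study exposed the cells to 4 media (low-glucose DMEM, high-glucose DMEM, EMEM and Plasmax) and measured polyadenylated RNA from its 3′ ends with QuantSeq, which gives about 1 read per transcript and so no correction for gene length. The question posed by this pair of media is which transcripts differ with the glucose grade of 1 basal medium.

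Liver cells sense glucose through its phosphorylated products. The transcription factors MondoA (MLXIP) and ChREBP (MLXIPL) pair with MLX, bind carbohydrate response elements when glucose 6-phosphate is high, and switch on genes such as TXNIP and ARRDC4, a pair of alpha-arrestins that restrain glucose uptake. In the opposite direction, cells short of glucose, or with impaired protein glycosylation, can activate the unfolded protein response and ATF4, which induces DDIT3, and the HIF pathway raises glucose transporters and glycolytic enzymes when oxygen is low.

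All groups were HepG2 labelled WT. Cells were kept in EMEM with 10% heat-inactivated fetal bovine serum, 1 mM pyruvate and 2 mM glutamine, seeded in EMEM, and given the test medium with 10% of the same serum 24 h later. The medium was renewed after 48 h and the cells were harvested 96 h after the switch. HGDMEM and LGDMEM therefore share the line, the serum, the seeding medium and the schedule. The labels give neither the glucose concentration nor the other ingredients of the DMEM products, so a second ingredient that differs between them cannot be told apart from glucose. Nothing in the labels says whether the 3 libraries of a medium are separate cultures on separate days, so the p-values rest on library-to-library variation of which some may be technical.

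Counts assigned to named genes ran from 3995365 to 5840057 per library over the 6 DMEM libraries. The hepatic identity of the line was clear in both media: ALB, encoding albumin, stood at 9464 ± 1046 CPM (counts scaled to library size; SD, n = 3) in LGDMEM and 10934 ± 767 (SD, n = 3) in HGDMEM, and AFP, the fetal counterpart of albumin, at 5105 ± 754 and 6230 ± 780. Of 12 leukocyte markers 4 had a row, and their summed level, nearly all of it lysozyme (LYZ), was 2216 to 3021 CPM in LGDMEM and 2843 to 3274 in HGDMEM. Of 14 endothelial and stromal markers 3 had a row, with sums of 34.2 to 57.2 CPM in LGDMEM and 48.8 to 65.4 in HGDMEM. The LGDMEM libraries were less alike than the HGDMEM ones, with a median SD over genes of 0.29 against 0.24 in log2 CPM. LGDMEM replicate 3 stood farthest from the rest on the first principal component of the 6 libraries, which held 31.5% of the variance. Where a result rests on single LGDMEM libraries, its value without them is given.

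Few genes separated the media. At an adjusted p of 0.05 or less in edgeR's quasi-likelihood test, 7 of the 10945 genes (0.064%) were called, 2 higher in HGDMEM (0.0183%) and 5 lower (0.0457%). TXNIP and C1D rose, while CPLX2, IL11, ACTG1, DDIT3 and SLC2A3 fell. In bulk RNA a change in the share of cells that express a gene and a change in RNA per cell cannot be told apart. The median log2 fold change over all genes was −0.0011, and 49.8% of genes were above 0. With the replicate number as a block, 15 genes were called (0.137%), 3 higher (0.0274%) and 12 lower (0.11%), and these 15 held all 7.

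**Figure D1:**
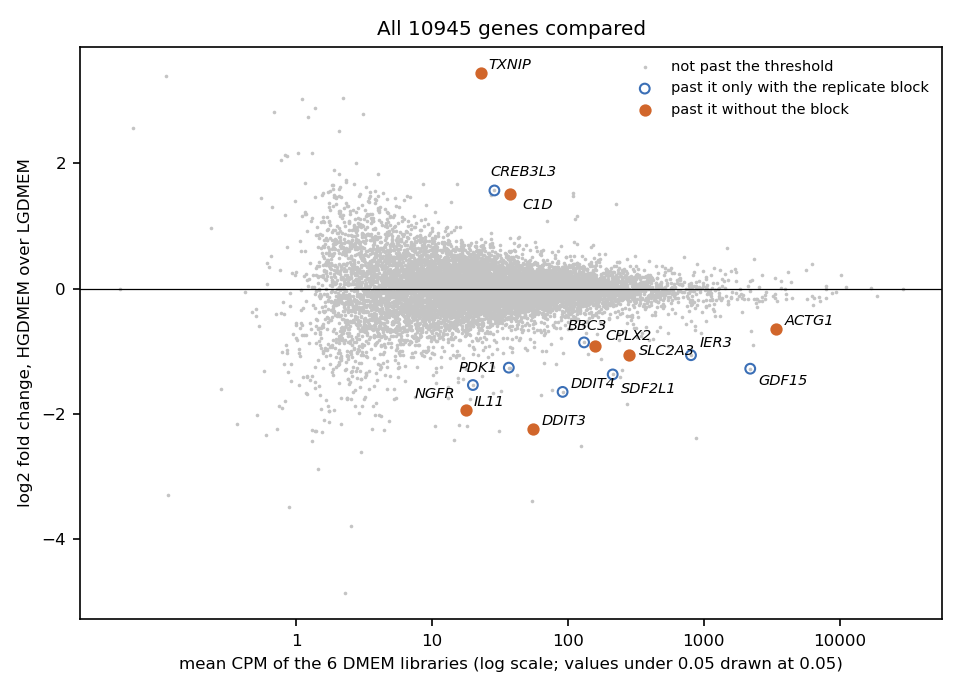
Log2 fold change of HGDMEM over LGDMEM (vertical axis) against mean CPM of the 6 DMEM libraries (horizontal axis, log scale) for all 10945 genes compared. Filled orange points are the 7 genes past the threshold and open blue circles the 8 that pass it only with the replicate block. TXNIP stands highest of all genes, at 3.44, and most of the genes marked lie below 0.

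The largest change among the called genes was that of TXNIP, which encodes thioredoxin-interacting protein, an alpha-arrestin that binds thioredoxin and promotes the internalisation of glucose transporters. It was read 4, 28 and 20 times in the LGDMEM libraries and 234, 182 and 242 times in the HGDMEM libraries, or 1.01, 5.50 and 4.53 CPM against 43.9, 30.1 and 51.2 CPM. The groups lay far apart, with the lowest HGDMEM library above 5 times the highest LGDMEM one. The log2 fold change was 3.44 (SE 0.39, 95% interval 2.62 to 4.26), a 10.9-fold rise, with an adjusted p of 0.00057 in edgeR. In EMEM TXNIP stood at 57.0, 20.3 and 34.1 CPM, overlapping HGDMEM and above every LGDMEM library. Its mean in Plasmax was 298 CPM.

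TXNIP is the textbook target of MondoA and ChREBP. The 250 bases before the first of its 2 annotated starts are therefore shown. The stretch in capitals matches a loose pattern for the carbohydrate response element. The sequence is that of RefSeq on GRCh38.p14, chr1:145996580-145996829, minus strand, while the deposited counts were made on GRCh37.
TXNIP promoter: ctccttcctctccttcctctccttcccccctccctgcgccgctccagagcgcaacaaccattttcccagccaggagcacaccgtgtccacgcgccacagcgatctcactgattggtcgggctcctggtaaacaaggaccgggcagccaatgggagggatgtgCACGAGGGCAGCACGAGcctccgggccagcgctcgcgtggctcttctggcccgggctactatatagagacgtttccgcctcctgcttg
The pattern searched was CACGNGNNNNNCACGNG, a pair of loosely written E-boxes 5 bases apart, on both strands. It matched from −88 to −72, counted back from that start. The window of the second start, chr1:145995745-145995994, held no match. Both boxes of the pattern were written in the same orientation, as they stand in TXNIP. A second box in the inverted orientation was not searched. Counts of matches therefore concern this pattern only, and not carbohydrate response elements in general.

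The same pattern occurred in 16 of 35116 promoter windows of this length in the table (0.0456%), and in the windows of 12 genes measured here. TXNIP was the only called gene among those 12. The pattern has the orientation of the boxes in TXNIP, so the presence of TXNIP among them is not an independent result. The median log2 fold change of the 12 was 0.08 and 7 of them were above 0. Next to TXNIP stood TIGD1, at 0.83 (SE 0.29, adjusted p 0.357 in edgeR), a gene picked out after its value was seen. The plain E-box CACGTG was far more common, in 6.34% of windows, among them those of ARRDC4 and ACTG1. These matches describe the letters in a window and no binding was measured.

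The TXNIP paralogue ARRDC4 was at the limit of detection. It was read 0 times in each LGDMEM library and 0, 4 and 0 times in the HGDMEM libraries, where a count of 0 allows up to 3 reads, so no fold change is given. The other alpha-arrestins with a row, ARRDC1, ARRDC2 and ARRDC3, had means below 10 CPM and none was called. The transcripts of the sensor itself were measured well: MLXIP was 28.7 ± 9.0 CPM in LGDMEM and 31.8 ± 3.4 in HGDMEM, and its partner MLX 32.3 ± 6.2 and 31.1 ± 6.4 (SD, n = 3). MLXIPL, encoding ChREBP, was 413, 174 and 87.4 CPM in LGDMEM and 163, 162 and 245 in HGDMEM. Its LGDMEM libraries spanned the HGDMEM ones, and the interval of its log2 fold change ran from −0.99 to 0.51.

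Beyond TXNIP, the list of 20 measured ChREBP and MondoA targets held no other called gene. Of these, 13 lay above 0, with a median of 0.18. Among the well-known hepatic members, PKLR, the liver pyruvate kinase, was near 3 CPM, with a log2 fold change of 0.73 (95% interval −0.91 to 2.38). G6PC, the glucose 6-phosphatase of liver, was rarer still, and its interval ran from −1.14 to 3.28. KLF10, a transcription factor induced by TGF-beta and by glucose, was 9.09, 11.6 and 8.38 CPM in LGDMEM and 7.13, 16.7 and 10.2 in HGDMEM, so its groups overlapped. ELOVL6 and ACACB, a fatty acid elongase and an acetyl-CoA carboxylase, together with GCKR, the glucokinase regulator, and TXNIP were the 4 members whose groups did not overlap and were higher in HGDMEM, against 5.63% of all genes.

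The other gene that rose was C1D, which encodes a small nuclear protein of the RNA exosome that also binds DNA-dependent protein kinase. It was 19.2, 18.1 and 20.8 CPM in LGDMEM and 58.1, 52.5 and 54.1 CPM in HGDMEM. Replicates were tight in both media, and the groups lay well apart. The log2 fold change was 1.50 (SE 0.22, adjusted p 0.00527 in edgeR), a 2.84-fold rise. EMEM libraries, at 43.7, 63.9 and 37.2 CPM, again overlapped HGDMEM and lay above LGDMEM. C1D has processed copies elsewhere in the genome, so how reads were shared between them is uncertain.

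DDIT3, encoding CHOP, a transcription factor induced by ATF4 in prolonged stress of the endoplasmic reticulum or amino acid shortage, fell most among the genes called. It was 31.0, 128 and 115.5 CPM in LGDMEM and 16.5, 21.2 and 20.5 CPM in HGDMEM. LGDMEM replicates 2 and 3 were high, while replicate 1 was close to HGDMEM without overlapping it. The log2 fold change was −2.24 (SE 0.36, adjusted p 0.0122 in edgeR), which is 4.73-fold lower. EMEM, at 19.4, 36.1 and 27.3 CPM, overlapped both media.

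IL11, a cytokine of the interleukin 6 family, was 21.2, 43.3 and 19.5 CPM in LGDMEM and 6.00, 7.45 and 8.46 CPM in HGDMEM. The lowest LGDMEM library was more than 2 times the highest HGDMEM library. Its log2 fold change was −1.95 (SE 0.28, adjusted p 0.00527 in edgeR). EMEM lay between, at a mean of 10.4 CPM, without overlapping either.

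SLC2A3 encodes GLUT3, a glucose transporter of high affinity and a HIF target. It was 266, 379 and 494 CPM in LGDMEM and 178, 140 and 227 CPM in HGDMEM. The groups did not overlap, although LGDMEM replicate 1 came close to HGDMEM replicate 3. The log2 fold change was −1.07 (SE 0.19, adjusted p 0.0401 in edgeR), or 2.09-fold lower. SLC2A14, a near-identical duplicate of SLC2A3 that could share its reads, was at 12.5 ± 3.3 CPM in LGDMEM and 9.2 ± 2.9 in HGDMEM (SD, n = 3).

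The other genes that fell were CPLX2 and ACTG1. CPLX2, encoding complexin 2, a regulator of vesicle fusion, was 191, 205 and 220 CPM in LGDMEM and 112, 113 and 102 CPM in HGDMEM, with tight replicates in both. Its log2 fold change was −0.91 (SE 0.13, adjusted p 0.00512 in edgeR). ACTG1, encoding gamma-actin, was 3710, 4089 and 4664 CPM in LGDMEM and 2783, 2450 and 2687 in HGDMEM, so that every HGDMEM library lay below every LGDMEM one. Its log2 fold change was −0.65 (SE 0.10, adjusted p 0.00741 in edgeR). The beta-actin gene ACTB, at 407.5 ± 107 and 325 ± 84 CPM, overlapped between media, with a log2 fold change of −0.33 (95% interval −0.75 to 0.10), and ACTG1 also has processed copies in the genome. In EMEM both CPLX2 and ACTG1 lay above every HGDMEM library and overlapped LGDMEM.

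**Figure D2:**
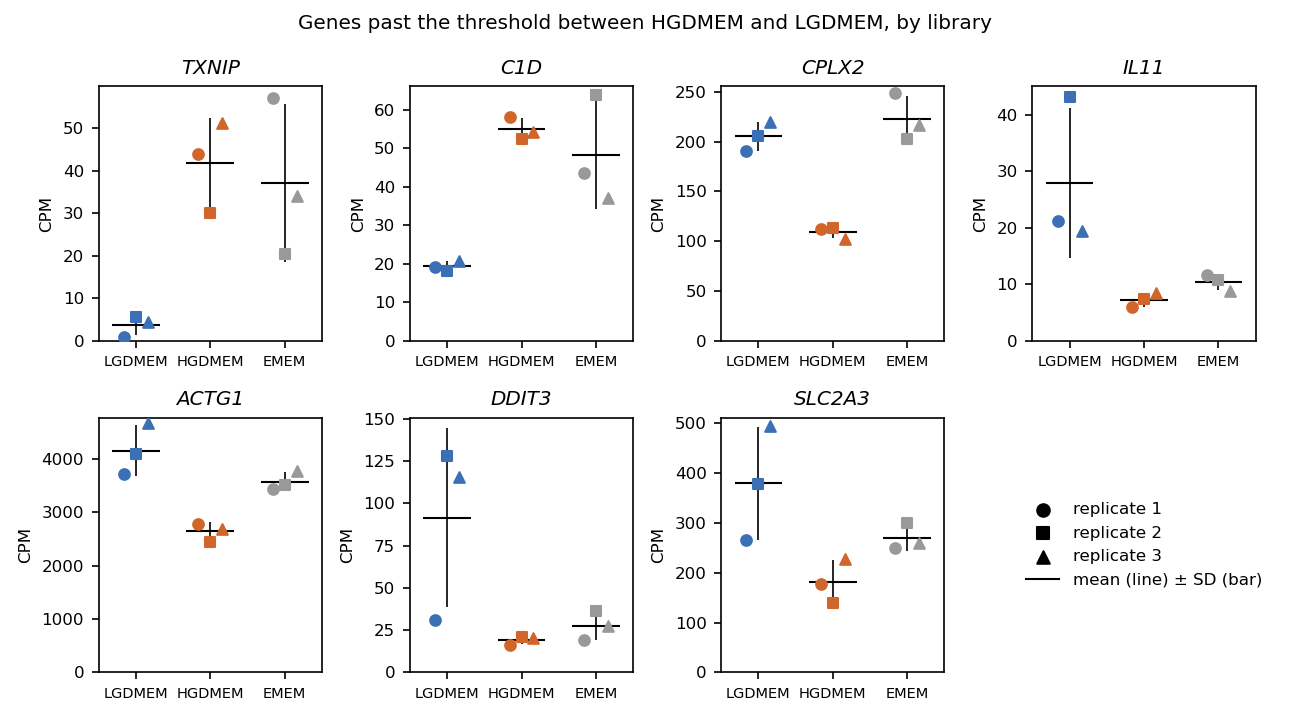
CPM of the 7 called genes in each library of LGDMEM, HGDMEM and EMEM, with marker shape giving the replicate number, the horizontal line the mean and the vertical bar ± 1 SD (n = 3). TXNIP and C1D are low in LGDMEM and overlap between HGDMEM and EMEM, and LGDMEM replicate 1 is the lowest LGDMEM library for DDIT3, SLC2A3 and ACTG1.

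TXNIP was called in 20 of 21 alternative analyses, C1D in 19, and CPLX2 and ACTG1 in 17 each. IL11 was called in 16, and DDIT3 and SLC2A3 in 11 each. The exception for TXNIP was limma voom, another test on the same counts (adjusted p 0.116), which did not call IL11 or DDIT3 either. The 21 include a fit without a filter on low counts, which could not differ from the main fit because edgeR's filter removed no gene. With the 6 DMEM libraries fitted alone, 2 genes were called, TXNIP and C1D. Without LGDMEM replicate 1, 118 genes were called, 101 of them lower in HGDMEM and all 7 above among them. Without LGDMEM replicate 2, 4 were called, and C1D, DDIT3 and SLC2A3 were no longer among them. DDIT3 also lost its call when any 1 of the HGDMEM libraries was left out, SLC2A3 without HGDMEM replicate 1 or 2 or LGDMEM replicate 3, IL11 without HGDMEM replicate 1 and ACTG1 without HGDMEM replicate 2.

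The replicate block added 8 genes in the fit to all 12 libraries. Fitted with the block to the 6 DMEM libraries alone, none of these 8 was called, and the 3 calls were TXNIP, C1D and ORM2, an acute phase glycoprotein (log2 fold change −1.07, adjusted p 0.0267 in edgeR). NGFR, a death-domain receptor of neurotrophins, was 18.2, 34.6 and 36.5 CPM in LGDMEM and 7.88, 14.7 and 7.83 in HGDMEM (log2 fold change −1.51, adjusted p 0.0186 in the blocked edgeR fit). GDF15, a stress hormone that suppresses appetite, was 1572, 5042 and 2720 CPM in LGDMEM and 1039, 1394 and 1411 in HGDMEM (−1.18, adjusted p 0.0346). In these members LGDMEM replicate 1 again stood nearest to HGDMEM. DDIT4, encoding the mTORC1 inhibitor REDD1, was 61.8, 235 and 119 CPM in LGDMEM and 29.6, 49.3 and 53.7 in HGDMEM (−1.54, adjusted p 0.0094). PDK1, the kinase that shuts pyruvate dehydrogenase and a HIF target, was 39.6, 41.7 and 73.8 CPM in LGDMEM and 21.4, 14.6 and 29.0 in HGDMEM (−1.24, adjusted p 0.042). The groups of both genes lay apart, though the LGDMEM libraries of each spread widely.

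The remaining 4 of the 8 were SDF2L1, BBC3, IER3 and CREB3L3. SDF2L1, a chaperone partner of the endoplasmic reticulum, was 157, 300.4 and 466 CPM in LGDMEM and 115, 115 and 127 in HGDMEM (adjusted p 0.0346 in the blocked edgeR fit). BBC3, encoding the pro-apoptotic protein PUMA, had a blocked log2 fold change of −0.85, and IER3, an immediate early gene, one of −0.99. CREB3L3, a liver transcription factor that controls triglyceride metabolism, was the only one of the 8 on the higher side, at 9.59, 15.7 and 18.1 CPM in LGDMEM and 37.7, 60.7 and 30.5 in HGDMEM (1.63, adjusted p 0.0201). None of the 8 passed without the block, where their adjusted p ran from 0.0727 for NGFR and SDF2L1 to 0.119 for CREB3L3, DDIT4, BBC3, GDF15 and IER3, with PDK1 at 0.11.

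Next in order were genes whose groups did not overlap but that passed in neither edgeR fit to the 12 libraries, with or without the block. Toward HGDMEM these were ACSS1, a mitochondrial acetyl-CoA synthetase (log2 fold change 1.07, adjusted p 0.0825 in edgeR), SMLR1 (0.74), MTTP, the lipid transfer protein that loads apolipoprotein B (0.54), EMP2 (0.59), SCARA3 (0.69), CNP (0.42) and SLC27A2, a fatty acyl-CoA synthetase of liver (0.99). ACSS1 was 55.8, 50.5 and 28.8 CPM in LGDMEM and 86.1, 111 and 86.7 in HGDMEM. Toward LGDMEM these were PPP1R15A, encoding GADD34, which restores translation after stress (−1.09, adjusted p 0.11), FAM107B (−0.66) and RAB20, a small GTPase (−1.28). DESeq2, run as an alternative on the same counts, called all 10, with adjusted p from 0.0013 (ACSS1) to 0.0496 (SLC27A2). Its 55 calls were 10 higher and 45 lower in HGDMEM.

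Of 10 glucose transporters with a row only SLC2A3 was called, 4 were above 0 and 6 below, and the median was −0.10. The mean log2 CPM of the list differed by 0.14, 0.03 and −0.62 (HGDMEM minus LGDMEM) within replicate numbers 1, 2 and 3. By this measure only number 3 was lower in HGDMEM. The summed CPM of the list, which weighs abundant members most, was lower in HGDMEM in each number. It was 1102, 1444 and 1916 in LGDMEM and 947, 1086 and 1110 in HGDMEM. SLC2A1, encoding GLUT1 and the most abundant, was 539, 765 and 1082 CPM in LGDMEM and 480, 657 and 608 in HGDMEM, with overlapping groups and a log2 fold change of −0.45 (95% interval −0.84 to −0.06, adjusted p 0.571 in edgeR). SLC2A2, the liver transporter GLUT2, was 13.6 ± 3.1 and 13.3 ± 3.3 CPM (SD, n = 3).

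None of the 24 glycolysis genes with a row was called, 17 were below 0 and the median was −0.27. The 5 that are also on the HIF list (HK2, LDHA, PGK1, PFKFB3 and PFKFB4) were all below 0, with a median of −0.89. The other 19 had a median of −0.12. The mean log2 CPM of all 24 was 6.14, 6.31 and 6.60 in LGDMEM and 5.85, 5.93 and 6.27 in HGDMEM, so the groups overlapped. Within replicate numbers 1, 2 and 3 it differed by −0.29, −0.38 and −0.32 (HGDMEM minus LGDMEM). At an unadjusted p under 0.05 in edgeR 7 of the 24 were lower and 0 higher, against 4.81% and 3.04% of all genes. Groups were apart for 2 of the 24 on the lower side and 0 on the higher, against 6.07% and 5.63% of all genes. HK2, the inducible hexokinase, was 65.1, 108 and 120 CPM in LGDMEM and 51.4, 50.0 and 56.9 in HGDMEM. Its groups did not overlap and its log2 fold change was −0.89 (SE 0.20), yet the adjusted p was 0.119. PFKFB3, which makes the activator of phosphofructokinase, was 8.08, 30.1 and 50.5 CPM in LGDMEM and 3.38, 3.48 and 12.9 in HGDMEM, so replicate 1 of LGDMEM fell inside the HGDMEM range (adjusted p 0.195). Without LGDMEM replicate 1 both were called, HK2 at −1.11 (adjusted p 0.0019 in edgeR) and PFKFB3 at −2.63 (adjusted p 0.0104).

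LDHA, lactate dehydrogenase, shows how much 1 library can carry: it was 716, 727 and 2105 CPM in LGDMEM and 653, 726 and 785 in HGDMEM. Only LGDMEM replicate 3 was high, and without it the log2 fold change moved from −0.71 to 0.00097. PGK1 followed the same layout, at 265, 298 and 590.5 CPM against 241, 197 and 307, and its log2 fold change moved from −0.63 to −0.18 without LGDMEM replicate 3. GAPDH did not, at 2875, 3388 and 1926 CPM in LGDMEM and 1025, 2711 and 1372 in HGDMEM, where the HGDMEM libraries themselves differed by more than 2-fold. At the muscle enolase ENO3, the list's upper end above 10 CPM, the log2 fold change was 0.36, with overlap. LDHA, PGK1, GAPDH and ENO2 (log2 fold change −0.73) were picked out after their values were seen.

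**Figure D3:**
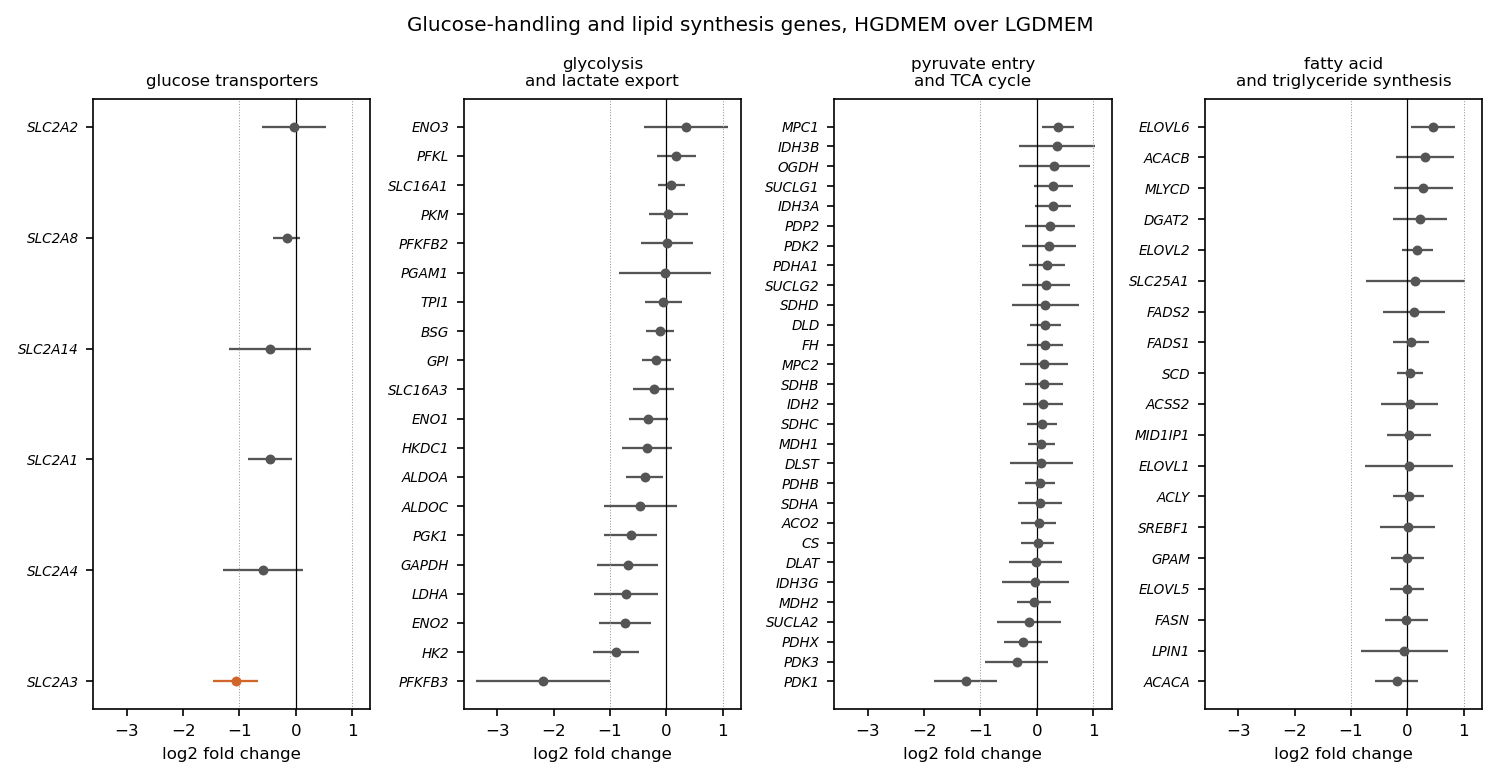
Log2 fold change of HGDMEM over LGDMEM (points) with its 95% interval (lines) for members with a mean of at least 10 CPM of 4 lists; dotted lines mark a 2-fold difference and orange marks an adjusted p of 0.05 or less. SLC2A3 is the only gene in orange, PFKFB3 and PDK1 lie farthest below 0 in their lists, and FASN, ACLY and SCD sit at 0 with intervals inside 2-fold.

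Pathways that take glucose carbon onward held no called gene in either direction without the block. In the pentose phosphate pathway 10 of 10 members had a row, from −0.20 (RPE) to 0.29 (TIGAR) among those above 10 CPM. In the pyruvate entry and TCA cycle list 23 of 30 lay above 0 with a median of 0.12, running from PDK1 to MPC1, the mitochondrial pyruvate carrier (0.38, groups apart, adjusted p 0.459). Among hexosamine genes OGA, which removes O-GlcNAc from proteins, was highest at 0.71 and GNPNAT1 lowest at −0.15. SORD, which turns sorbitol into fructose, was 0.58 with groups apart, and AKR1B10 was −0.43. Glycogen genes above 10 CPM ran from GYS1, the glycogen synthase outside liver (−0.83, groups apart, adjusted p 0.392), to PPP1R3E (0.38). In gluconeogenesis PCK1 was 0.71 and PCK2 −0.36, both with overlap.

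Of 22 fatty acid and triglyceride synthesis genes with a row, none was called and 18 had a 95% interval inside 2-fold either way. FASN, fatty acid synthase, was 1325, 1115 and 633 CPM in LGDMEM and 1091, 1046 and 891 in HGDMEM. Its log2 fold change was −0.02 (95% interval −0.40 to 0.36). ACLY, which makes cytosolic acetyl-CoA, gave 0.02 (−0.25 to 0.30), and SCD, the stearoyl-CoA desaturase, 0.04 (−0.19 to 0.27). All 3 intervals exclude a 2-fold difference either way. Of 22 members 17 lay above 0, with a median of 0.04, and those above 10 CPM ran from ACACA (−0.19) to ELOVL6 (0.46). Cholesterol genes had a median of 0.16 over 23, and MVD, an enzyme of the mevalonate pathway, was at 0.43 with overlapping groups.

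The broadest tilt lay in 3 stress lists, where most members were lower in HGDMEM though few were called. All 31 measured HIF targets were below 0, with a median of −0.70 beside −0.0011 over all genes; 1 was called (SLC2A3), 3 with the block over 12 libraries (SLC2A3, DDIT4 and PDK1), and 7 had groups apart in that direction, against 6.07% of all genes. In the ATF4 list 40 of 41 were below 0 with a median of −0.42; 1 was called (DDIT3), 3 with the block (DDIT3, DDIT4 and GDF15), and 6 had groups apart. In the list of endoplasmic reticulum chaperones 23 of 26 were below 0 with a median of −0.49; none was called, 1 with the block (SDF2L1), and 5 had groups apart. Over all genes 0.0457% were called lower, 0.11% with the block, and 6.07% had groups apart in that direction. The HIF and ATF4 lists share DDIT4 and STC2. With the 6 DMEM libraries fitted alone, with or without the block, no member of these 3 lists was called.

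This tilt was uneven over the LGDMEM libraries. The mean log2 CPM of the HIF list was 5.04, 5.71 and 6.32 in LGDMEM and 4.73, 4.89 and 5.29 in HGDMEM. LGDMEM replicate 1 lay within the HGDMEM range and replicates 2 and 3 above it. For the ATF4 list the values were 6.02, 6.84 and 7.06 in LGDMEM and 6.06, 6.19 and 6.24 in HGDMEM, and for the chaperones 6.98, 7.33 and 8.05 against 6.87, 7.06 and 7.17. In both lists the HGDMEM libraries were close together while LGDMEM replicate 1 sat among or below them. Within replicate numbers 1, 2 and 3 the difference of HGDMEM minus LGDMEM was −0.31, −0.82 and −1.03 for the HIF list. It was 0.04, −0.65 and −0.83 for the ATF4 list and −0.11, −0.27 and −0.88 for the chaperones.

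**Figure D4:**
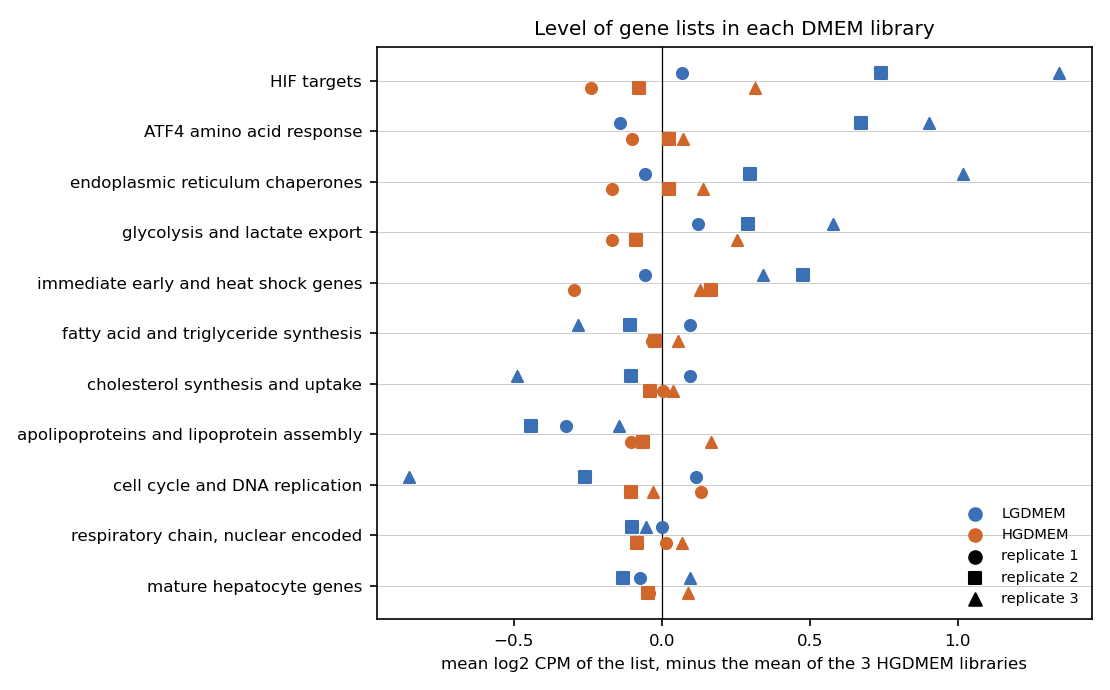
Mean log2 CPM of 11 gene lists in each of the 6 DMEM libraries, given as the difference from the mean of the 3 HGDMEM libraries (horizontal axis), blue for LGDMEM and orange for HGDMEM, with marker shape for the replicate number. For the HIF, ATF4 and chaperone lists LGDMEM replicates 2 and 3 lie to the right of the HGDMEM libraries and replicate 1 does not, and the cell cycle list is lowest in LGDMEM replicate 3.

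Without LGDMEM replicate 3 the medians shrank to −0.35 for the HIF list, −0.20 for ATF4 and −0.10 for the chaperones, and 10 of the 31 HIF targets were then above 0. Without LGDMEM replicate 1 they grew to −0.97, −0.66 and −0.65. Members called lower were then 9, 14 and 8, against 101 of all 10945 genes. The tilt therefore depended on which LGDMEM libraries entered.

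Single members of these lists repeated the layout. NDRG1, a hypoxia-induced gene, was 127, 261 and 677 CPM in LGDMEM and 82.7, 155 and 197 in HGDMEM (log2 fold change −1.30, adjusted p 0.392 in edgeR). HSPA5, encoding the chaperone BiP, was 1482, 2150 and 5350 CPM in LGDMEM and 1402, 1716 and 1697 in HGDMEM (−0.90, adjusted p 0.39). LGDMEM replicates 2 and 3 were the high libraries, and replicate 1 lay inside the HGDMEM range. HERPUD1, a component of the degradation machinery at the endoplasmic reticulum, was 117, 493 and 447 CPM in LGDMEM and 86.7, 138 and 173 in HGDMEM (−1.41, adjusted p 0.184). SESN2, a sestrin that restrains mTORC1, was 27.5, 72.5 and 59.5 CPM in LGDMEM and 15.6, 26.5 and 24.5 in HGDMEM, with groups apart (−1.26, adjusted p 0.119). ATF4 itself, regulated mainly at translation, was 1792, 2257 and 2446 CPM against 1574, 1792 and 1629 (−0.38, adjusted p 0.453). Without LGDMEM replicate 3 the log2 fold change was −0.43 for NDRG1 and −0.18 for HSPA5, and adjusted p was 0.942 and 0.945 in edgeR. Without LGDMEM replicate 1 NDRG1 (−1.70), HSPA5 (−1.22), HERPUD1 (−1.83) and SESN2 (−1.57) were called, with adjusted p of 0.0184, 0.00967, 0.000337 and 0.00111. XBP1 and P4HA2 stood near 0 in their lists, at 0.05 and −0.01, and ALDH18A1, of proline synthesis, at 0.42. NDRG1, HSPA5, SESN2 and ATF4 were picked out after their values were seen.

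Outside the lists of stress genes, IGFBP1, a secreted binder of insulin-like growth factors that insulin represses, varied widely, at 163, 600 and 3619 CPM in LGDMEM and 134, 122 and 587 in HGDMEM. Replicate 3 was the highest library in both media, and the log2 fold change was −2.38 (adjusted p 0.392 in edgeR). It was −0.45 without LGDMEM replicate 3 (adjusted p 0.985), and −2.91 without LGDMEM replicate 1, where it was called (adjusted p 0.0272). PLIN2, the coat protein of lipid droplets, was 382, 638 and 999 CPM in LGDMEM and 347, 340 and 545 in HGDMEM (log2 fold change −0.71, adjusted p 0.453). Without LGDMEM replicate 1 it was called (adjusted p 0.021), and without replicate 3 its log2 fold change was −0.31. EGR1, an immediate early gene, had groups apart (−1.21, adjusted p 0.315), and was −0.62 without LGDMEM replicate 2.

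Cell cycle genes leaned the other way. Of 35 measured, 34 were above 0 with a median of 0.28, none was called, and 2 (CCNA2 and BUB1) had groups apart, a share close to the 5.63% of all genes. The list's mean log2 CPM was 6.65, 6.27 and 5.68 in LGDMEM and 6.66, 6.43 and 6.51 in HGDMEM, so LGDMEM replicates 2 and 3 lay below the HGDMEM range, replicate 3 farthest. Without replicate 3 the median was 0.05. BUB1, a mitotic checkpoint kinase, was 16.7, 11.2 and 9.96 CPM in LGDMEM and 20.3, 19.7 and 18.4 in HGDMEM (log2 fold change 0.63, adjusted p 0.632 in edgeR), and KIF11, a spindle motor, was at −0.12.

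ALB, AFP and the fibrinogen genes differed little between media. ALB had a log2 fold change of 0.21 (95% interval 0.00 to 0.41, adjusted p 0.632 in edgeR) and AFP 0.29 (0.03 to 0.54, adjusted p 0.578). The fibrinogen chains FGA, FGB and FGG, picked out after their values were seen, had log2 fold changes of 0.22, 0.27 and 0.29, each with groups apart and none called. FGG was 924, 895 and 847 CPM in LGDMEM and 1051, 1101 and 1100 in HGDMEM. Of 14 apolipoprotein and lipoprotein assembly genes, 4 had groups apart toward HGDMEM (LIPC, APOA5, MTTP and APOA4), against 5.63% of all genes. The mean log2 CPM of that list was 7.67, 7.55 and 7.85 in LGDMEM and 7.89, 7.93 and 8.16 in HGDMEM, without overlap. Its summed CPM did overlap, at 15734 to 17498 in LGDMEM and 14874 to 16914 in HGDMEM. MTTP was 146, 144 and 164 CPM in LGDMEM and 200.3, 239 and 221 in HGDMEM. TFRC, the transferrin receptor, was 323 ± 20 and 293 ± 10 CPM, and HAMP, encoding hepcidin, 43.3 ± 23.4 and 32.6 ± 3.0 (SD, n = 3), neither called.

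Energy metabolism beyond glycolysis was level. Of 45 nuclear genes of the respiratory chain 29 lay above 0, with a median of 0.06, none was called, and 44 had a 95% interval inside 2-fold. The 13 mitochondrially encoded mRNAs had a median of −0.0009, from ND4 (−0.13) to ND6 (0.69). Thioredoxins, thioredoxin reductases and peroxiredoxins had a median of 0.04, with TXN at 0.21 and TXN2 at −0.11, and none was called. The p53 list, with 14 of 26 above 0, ran from GDF15 to PHLDA3 (0.64) among members above 10 CPM.

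The remaining lists held no called gene without the block, and their extremes above 10 CPM were as follows. Of 27 NRF2 targets and glutathione enzymes 22 were below 0 (median −0.15), from SLC7A11, the cystine importer (−0.70), to the glutathione transferase GSTA1 (0.51). Insulin and FOXO genes had a median of 0.03, with the kinase SGK1 at 0.51. Regulators of energy state, the AMPK list, had a median of −0.01, from the deacetylase SIRT1 (−0.57) to PRKAB1, an AMPK subunit (0.20). Among factors of the Max network MNT was at −0.43 and MXD4 at 0.23. Iron and hepcidin genes ran from ACVR1 (−0.44) to BMPR2 (0.60), both BMP receptors. The acid glycoproteins ORM2 (−1.05) and ORM1 (0.82), near-identical genes whose reads may be divided uncertainly, bounded the acute phase list. Metallothioneins ran from MT1A (−0.27) to MT1M (0.62), with the same caution.

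The small number of calls does not show that other genes were equal. The 95% interval lay inside 2-fold either way for 7238 genes (66.1%), and the median SE of a log2 fold change was 0.25. By point estimate 175 genes were at least 2-fold higher in HGDMEM and 245 at least 2-fold lower. At an unadjusted p under 0.05 there were 860 genes (7.86%), 333 higher (3.04%) and 527 lower (4.81%).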

How the data were processed

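The authors deposited 1 table of raw counts per gene symbol for 12 QuantSeq libraries. FastQC 0.72, cutadapt 1.16, STAR 2.7.5b, featureCounts 1.6.3, limma 3.40.6 and GRCh37 are named in the submitters' processing notes, without settings. Of 11546 rows, 601 without a symbol (2.92% to 3.37% of counts in the DMEM libraries) were left out. The deposited rows held no gene that edgeR's filter removed, and the filter the authors used is not given in the sources used here. Symbols on more than 1 row (5) were kept as separate rows.

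All 12 libraries were fitted in a one-way layout of the 4 media with edgeR 4.0.16 (R 4.3.3), TMM scaling, the quasi-likelihood test and Benjamini-Hochberg adjustment at 0.05. CPM use TMM-scaled library sizes, a list's level in a library averages its members' log2 CPM (prior count 2), and standard errors are the log2 fold change over the root of F. Scripts were tested on simulated data. Members and gene lists were chosen with earlier results of these data known, and no set was tested. Genes were named by rule: all called, the 8 nearest misses per direction (at least 10 CPM, groups apart), 26 glucose, lipid and liver genes, and list extremes of at least 10 CPM; any other gene was picked after its values were seen. Some genes that the rule names are not reported here. Of 659 list members, 573 had a row, 27 under another symbol.

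Same-numbered HGDMEM and LGDMEM libraries deviated together: the correlations were 0.246, 0.165 and 0.21 over 4366 genes above 5 log2 CPM, and 0.112, 0.0693 and 0.0687 over all genes. The labels do not say what a number marks. Blocked values are therefore printed where they change a call. Counting intervals would cover counting error only, and none is printed.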

Additional observations from a re-analysis of the deposited data

How the results depend on the processing

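There were 21 alternatives, 18 planned and 3 added after seeing the data. The 7 calls (2 higher, 5 lower in HGDMEM) remained 6 or 7 under other scalings, a stricter filter on low counts and with unnamed rows kept. The fit without a filter, counted among the 21, was the main fit again, since edgeR's filter removed no gene. DESeq2 called 55 (10 higher, 45 lower), limma voom 4 (1 higher, 3 lower), a threshold of 0.01 5 (3 lower), and the 6 DMEM libraries alone 2 (0 lower; 678 at an unadjusted p under 0.05). With the replicate block the count was 15 (12 lower) over all 12 libraries and 3 (1 lower) over the 6. Leaving out 1 library, or 1 number from both media, gave 2 to 118 calls, 1 to 17 higher and 1 to 101 lower; the extremes were number 2 from both media (2 calls) and LGDMEM replicate 1 (118), and number 1 from both media gave 47. In the 2 media, 3 libraries each limit what can be called, and the cause of these differences was not tested.

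Called genes kept their direction in every alternative run, but several uncalled genes near 0 changed sign. FASN was 0.00178 with upper-quartile scaling, 0.015 on library size only, 0.044 with limma voom, 0.013 with the replicate block and 0.040 with the block over the 6 libraries, and P4HA2 0.012, 0.034, 0.018, 0.016 and 0.026 in the same order. SLC2A2 was 0.0070 on library size only. With limma voom G6PC was −0.33, KIF11 0.031 and MLXIPL 0.024. When libraries were left out, log2 fold changes ranged from −0.10 to 0.13 (ACLY), −0.074 to 0.33 (CD74), −0.13 to 1.00 (ENO3), −0.27 to 0.21 (FASN), −0.74 to 0.077 (HAMP), −0.49 to 0.28 (KIF11), −0.17 to 0.48 (KLF10), −0.98 to 0.00097 (LDHA), −0.39 to 0.16 (MLX), −0.024 to 0.43 (MLXIP), −0.85 to 0.63 (MLXIPL), −0.66 to 0.031 (NDUFA10), −0.18 to 1.18 (ORM1), −0.18 to 0.30 (P4HA2), −0.61 to 0.21 (PCK2), −0.072 to 0.12 (SCD), −0.22 to 0.18 (SLC2A2), −0.0067 to 0.53 (TIGAR) and −0.0088 to 0.11 (XBP1).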
